A study of Homo sapiens with 19 samples.

Results

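The 34 genes described here run glucose from the hexokinases to lactate or to the mitochondrial pyruvate enzymes, and they were taken from a list of names that was matched to the gene names of an Agilent expression array. All 34 of the 34 were on the array, among 31033 gene names in all, and pyruvate kinase M appears under its older name PKM2. They were measured in THP-1 cells, a human monocytic leukaemia line that PMA (phorbol myristate acetate) turns into macrophage-like cells. Every group was differentiated with 30 nM PMA, rested in fresh medium, and then left untreated (UT) or given 0.1 mM vit C (ascorbate). The cells were collected 8, 24, 48 or 96 h later, with 2, 3, 2 and 3 arrays for UT cells in that order of time and 3, 2, 2 and 2 for vit C-treated cells. Each array was labelled as a separate replicate, all from 1 cell line.

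Glycolysis splits glucose into pyruvate and yields ATP without oxygen. Hexokinases trap glucose as glucose-6-phosphate, phosphofructokinase commits it to the pathway, and lactate dehydrogenase turns pyruvate into lactate, which monocarboxylate transporters carry out of the cell. Pyruvate dehydrogenase sends pyruvate into the mitochondrial citrate cycle instead, and the pyruvate dehydrogenase kinases switch that enzyme off. Activated macrophages are known for a high rate of glycolysis, and several of its genes are targets of the hypoxia-inducible factor HIF-1, whose prolyl hydroxylases use ascorbate as a cofactor.

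A gene's value is the log2 of the scanner's processed signal of its brightest probe minus the 75th percentile of that array, so a value of 0 is the level that 75% of the probes on the array lie under. Values of different genes come from different probes and cannot be set against each other. The 34 genes had 56 probes, and the brightest probe was well above background on all 19 arrays for 33 genes and on 18 for PDK4. The differences below come from limma, fitted to all probes, with Benjamini-Hochberg q over all gene names. A gene was called at an absolute log2 difference of at least 1 with q of at most 0.05, and genes with q of at most 0.05 at any size are counted as well.

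The arrays lay on 4 slides, and no slide held UT and vit C arrays of the same time. Slide 1 held 8 UT arrays, slide 2 held 2 UT 96 h arrays and 6 vit C arrays, slide 3 held 1 vit C 48 h array, and slide 4, scanned on another day, held both vit C 96 h arrays and nothing else. Slide and treatment can therefore not be told apart at 96 h. At 8, 24 and 48 h all UT arrays were on slide 1 and all vit C arrays on slides 2 and 3. Those comparisons, and the average over the 4 times, therefore set slides against each other as well as treatments. UT 24 h and 48 h against 8 h, and vit C 24 h against 8 h, were compared within 1 slide. Between 57.5% and 72.8% of probes per array were well above background, highest on the vit C 96 h arrays, whose 75th percentile signals of 788 and 903.5 lay above the 290.2 to 625.6 of the other arrays. Of 11 monocyte and macrophage markers on the array 9 were above background on every array and MRC1, a mannose receptor, on none. Marker lists of other cell types moved as well, given here as summed levels in multiples of the 75th percentile. The fibroblast list (4 genes, with PDGFRA above background on all arrays and COL1A2 on none) lay at 0.75 to 0.768 in UT cells at 8 h, 1.18 to 1.56 at 24 h, 4.54 to 4.64 at 48 h and 1.47 to 3.37 at 96 h. With vit C it lay at 0.618 to 0.885, 2.24 to 2.74, 5.52 to 6.2 and 5.47 to 6, above the UT range from 24 h on. Before scaling, signals ran from 7.198 to 3853 for DCN, above background on 14 arrays, and from 251.6 to 1471 for PDGFRA. COL1A1 reached 72.46 at most. The endothelial list (4 genes, 2 on all arrays, CDH5 on none), which holds PECAM1, also a monocyte gene, lay at 26.7 to 27.4, 14.1 to 16.7, 37 to 38.8 and 41.2 to 61.5 in UT cells. With vit C it lay at 25.6 to 29, 10.1 to 13.1, 27.1 to 27.6 and 25.1 to 26.4, under the UT range from 24 h on. This sum was mostly PECAM1, whose signals before scaling ran from 3613 to 38400, beside 47.25 to 575.4 for VWF. The B cell list (4 genes, 3 on all arrays) read 1.43 to 2.12 in UT and 3.53 to 3.96 in vit C cells at 8 h, and 1.86 to 2.55 and 3.67 to 4.98 at 48 h. It overlapped at 24 h (1.89 to 2.89 and 2.37 to 4.68) and at 96 h (1.7 to 3.93 and 1.58 to 1.82). Of the T cell list (5 genes) CD3E was on all arrays and CD3D on none. Its sum did not overlap at 8 h, lower with vit C (0.209 to 0.214 in UT and 0.18 to 0.207 in vit C cells), or, higher with vit C, at 24 h (0.182 to 0.2 and 0.25 to 0.269) and 96 h (0.237 to 0.263 and 0.269 to 0.273). Of the epithelial list (3 genes) KRT8 and KRT18 were on all arrays and CDH1 on none, and its sum overlapped at all times but 48 h (3.21 to 3.36 in UT and 2.51 to 2.54 in vit C cells). All arrays came from 1 cell line, so these sums describe genes and do not count cells of another type. The part of these genes in the results was not tested. In bulk RNA, fewer cells of a kind and less RNA per cell cannot be told apart.

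Probe sequences of PFKL are printed because its result below turns on which probe is read, and those of GAPDH because its probes overlap. PFKL, the liver-type phosphofructokinase that is also made in blood cells, has 2 probes of 60 bases, both designed to the same RefSeq transcript and both 55% G and C. They gave different spreads over arrays.
PFKL, brighter probe: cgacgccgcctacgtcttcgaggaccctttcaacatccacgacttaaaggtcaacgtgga
PFKL, second probe: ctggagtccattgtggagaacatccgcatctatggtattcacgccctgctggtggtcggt
For GAPDH, the dehydrogenase that makes the first NADH of the pathway, the 2 brighter of 3 probes share 59 bases, in capitals, and are offset by 1 base, so they are not independent measurements.
GAPDH, brightest probe: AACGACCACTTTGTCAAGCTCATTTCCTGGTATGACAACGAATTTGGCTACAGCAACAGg
GAPDH, overlapping probe: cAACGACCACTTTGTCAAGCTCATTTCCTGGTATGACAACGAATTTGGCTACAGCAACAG

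With vit C, none of the 34 genes was called after 8, 24 or 48 h, and none had q of at most 0.05 there. Under quantile normalization FBP1 at 24 h (-0.65, q = 0.0373) and PFKFB3 at 48 h (0.67, q = 0.043) had q of at most 0.05, as had 3 members at 48 h with array weights, beside 3271 of all 31033 genes in that fit. In order of time, the median difference over the members was -0.07, -0.11 and -0.23, beside -0.05, -0.13 and -0.02 over all genes. At an unadjusted p of at most 0.05, limma gave 2, 1 and 5 of the members, beside 12.2%, 15.8% and 15.5% of all genes. The share of all genes called was 0.306%, 1.17% and 2.74%, and the share with q of at most 0.05 was 0.329%, 1.45% and 3.26%. The share called moved with the fit: it was 0.0193%, 0.0548% and 0.338% with the slide as a fixed block. With array weights it was 3.35%, 0.744% and 5.75%. The difference was under 0.5 on the log2 scale for 31, 31 and 24 of the 34 members. The 95% interval of the difference lay wholly within 1 log2 unit of 0 for 28, 27 and 21 members, and for the remaining members it reached past 1 log2 unit. At 48 h 26 members were lower with vit C and 8 higher. Of all 34 members 18 were lower and 7 higher without overlap between arrays, beside 28.9% and 21.8% of all genes. Among the genes above background on all arrays the shares were 38.9% and 25.2%.

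**Figure D1:**
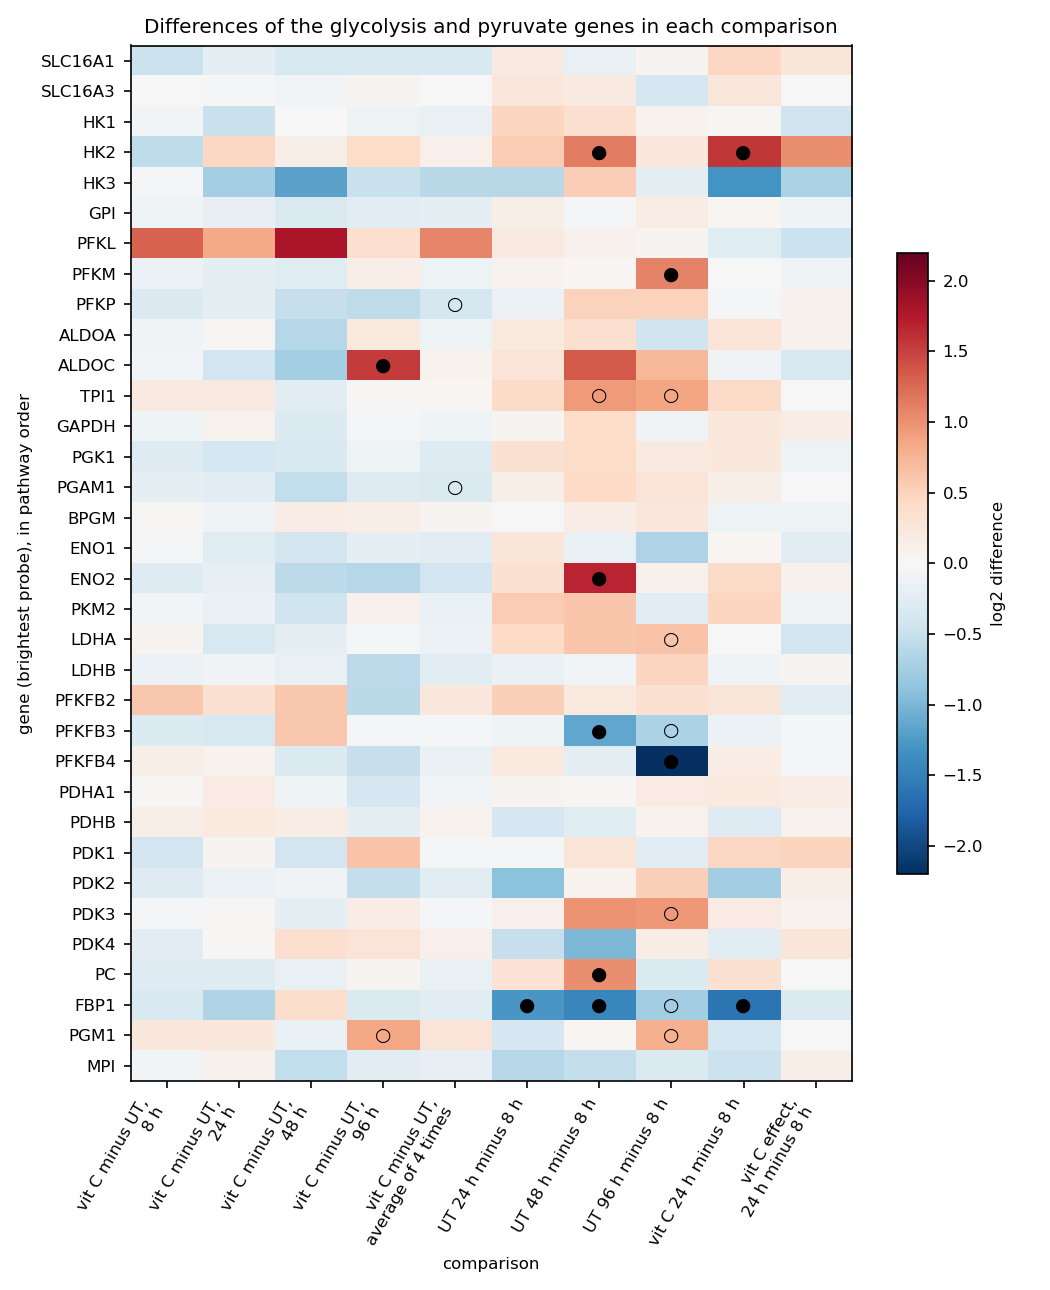
Log2 difference of each of the 34 genes (rows, in pathway order) in each of the 10 comparisons (columns), as colour; filled circles mark called genes and open circles genes with q of at most 0.05 and a smaller difference. There are 5 filled circles for UT 48 h minus 8 h, where 7.02% of all genes were called, and 1 for vit C minus UT at 96 h, where 6.4% were.

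HK2, the inducible hexokinase, read 2.09, 2.47 and 2.05 on the vit C 8 h arrays and 2.85 and 2.67 on the UT 8 h arrays. The groups did not overlap, with vit C lower, and the log2 difference was -0.56 ± 0.24 (SE; limma q = 0.368). At 24 h HK2 read 3.43 and 4.14 with vit C and 3.16 to 3.61 in 3 UT arrays, which overlap, with a difference of 0.46 ± 0.24 (q = 0.356). FBP1, fructose-1,6-bisphosphatase, which runs the phosphofructokinase step backwards, came nearest to the threshold at 24 h. It read 0.58 and 0.65 with vit C against 1.40, 1.23 and 1.19 in UT cells, a log2 difference of -0.66 ± 0.17 (q = 0.0818). All vit C values lay under all UT values, as in 18.1% of all genes. PFKFB3, which makes the phosphofructokinase activator fructose-2,6-bisphosphate, read 2.77 and 2.28 with vit C at 48 h against 1.95 and 1.92 in UT cells (0.59 ± 0.20, q = 0.138). HK3, the hexokinase of blood cells, had the lowest difference at 24 h (-0.72 ± 0.57, q = 0.528) and at 48 h (-1.18 ± 0.62, q = 0.399), with wide errors.

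The other members at the ends of the range, by the rule for named genes, did not pass either. At 8 h these were SLC16A1, a lactate and pyruvate transporter (-0.47 ± 0.23, q = 0.455), PDK1, a pyruvate dehydrogenase kinase (-0.43 ± 0.25, q = 0.534), PGM1, which links glycogen to glucose-6-phosphate (0.23 ± 0.19, q = 0.691), and PFKFB2, a relative of PFKFB3 (0.59 ± 0.24, q = 0.319). At 24 h they were HK1, the hexokinase of most tissues (-0.49 ± 0.32, q = 0.448), and PFKFB2 (0.34 ± 0.24, q = 0.477). At 48 h they were ALDOC, the brain-type aldolase (-0.74 ± 0.45, q = 0.494), ALDOA, the muscle-type aldolase that most cells use (-0.63 ± 0.41, q = 0.54), and PFKFB2 (0.59 ± 0.26, q = 0.288).

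At 96 h 1 member was called with vit C and 2 had q of at most 0.05, both higher. That is 1 of 34 called, beside 6.4% of all genes and 3.31% of the 17292 genes above background on all arrays. At q of at most 0.05 alone, 8.32% of all genes passed. ALDOC read -0.34 and -0.76 on the vit C arrays and -1.73, -1.71 and -2.83 on the UT arrays. The vit C arrays were above all UT arrays, and the log2 difference was 1.54 ± 0.41 (SE), a 2.91-fold higher level (limma q = 0.0396). PGM1 read 0.98 and 0.64 with vit C against values from -0.14 to 0.00 in UT cells. The difference was 0.86 ± 0.19, a 1.81-fold higher level (q = 0.0185), and again the groups did not overlap. Leaving out vit C 96 h replicate 1 brought ALDOC to q = 0.178 and PGM1 to q = 0.128, and leaving out replicate 2 brought them to q = 0.163 and q = 0.0526. Without UT 96 h replicate 2, ALDOC had q = 0.0504. ALDOC also missed the threshold with the slide as a random block (q = 0.0501), with the replicate block (q = 0.0728) and with quantile normalization (q = 0.0556), where PGM1 had q = 0.0249, 0.0434 and 0.011.

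Below ALDOC and PGM1 came PDK1 (0.62 ± 0.25, q = 0.133) among the higher genes. The lower end held ENO2, the neuronal enolase (-0.62 ± 0.36, q = 0.313), PFKFB2 (-0.59 ± 0.24, q = 0.133) and LDHB, the heart-type lactate dehydrogenase subunit (-0.57 ± 0.18, q = 0.0626). LDHB read 6.89 and 7.07 with vit C and 7.53, 7.36 and 7.76 in UT cells. Its groups did not overlap, as in 26.2% of all genes on the lower side. The differences nearest to 0 were those of TPI1, triose phosphate isomerase (0.02), PFKFB3 (-0.03), LDHA, the muscle-type lactate dehydrogenase subunit (-0.03), GAPDH (-0.05) and SLC16A3, the lactate exporter MCT4 (0.06).

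Averaged over the 4 times, no member was called, and 2 had q of at most 0.05, both lower with vit C: PFKP, the platelet-type phosphofructokinase (-0.39 ± 0.10, q = 0.0178), and PGAM1, phosphoglycerate mutase (-0.32 ± 0.08, q = 0.0177). That is 2 of 34, beside 12.7% of all genes at q of at most 0.05 and 2.77% called. At an unadjusted p of at most 0.05 limma gave 10 of 34, beside 28.9% of all genes. PFKP had log2 differences of -0.30, -0.21, -0.50 and -0.57 in order of time, and PGAM1 of -0.22, -0.23, -0.54 and -0.28, none of which passed alone. PGAM1 had the smallest spread between replicates of all members, a within-group SD of 0.0815, and its average difference was 1.25-fold. Of the other members named here, HK3 was at -0.61 ± 0.29 (q = 0.181), ENO2 at -0.41 ± 0.18 (q = 0.152), PFKFB2 at 0.23 ± 0.12 (q = 0.216), PGM1 at 0.29 ± 0.10 (q = 0.0619) and PFKL at 1.08 ± 0.49 (q = 0.168). Without UT 96 h replicate 2 PFKL was called, at 1.33 (q = 0.0494), and PGAM1 had q = 0.0521 without vit C 96 h replicate 2 and q = 0.0539 with quantile normalization. Without UT 96 h replicate 3, an array described below, 8 members had q of at most 0.05, beside 21.7% of all genes: PFKP, PGAM1, ENO2 (-0.51, q = 0.0206), PGK1 (-0.32, q = 0.0173), PFKFB4 (-0.32, q = 0.027), MPI (-0.25, q = 0.0352) and ENO1 (-0.35, q = 0.049) lower and PGM1 (0.28, q = 0.045) higher.

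**Figure D2:**
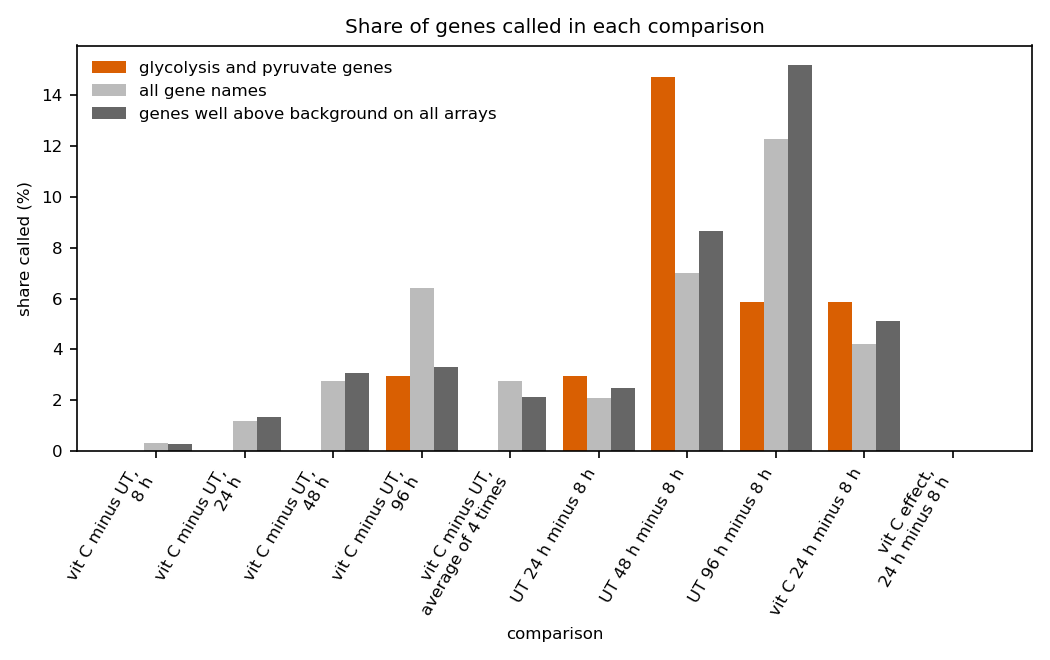
Share of the 34 genes, of all 31033 gene names and of the 17292 genes well above background on all arrays (bars) that were called in each comparison. With vit C against UT at a single time the bar of the 34 genes is at 0 in 3 comparisons and stands for 1 gene at 96 h, and for UT 48 h minus 8 h it stands for 5 genes, above the 7.02% and 8.67% of the other bars.

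In UT cells at 24 h against 8 h FBP1 was the only member called, and the only member with q of at most 0.05 (2.08% and 2.82% of all genes). FBP1 read 2.53 and 2.59 at 8 h and 1.40, 1.23 and 1.19 at 24 h, a log2 fall of 1.29 ± 0.17 or 2.44-fold (limma q = 0.00101). The groups lay far apart, and 17.3% of all genes were lower without overlap. PDK2, the pyruvate dehydrogenase kinase of most tissues, was at -0.91 ± 0.26 (q = 0.0823) and MPI, which joins mannose to glycolysis, at -0.63 ± 0.22 (q = 0.172). The highest members were HK2 (0.56 ± 0.24, q = 0.301), PKM2 (0.55 ± 0.28, q = 0.358) and PFKFB2 (0.52 ± 0.24, q = 0.321).

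At 48 h against 8 h in UT cells 5 members were called, 3 higher and 2 lower, beside 7.02% of all genes, and 6 had q of at most 0.05, beside 8.91%. ENO2 read -1.79 and -1.58 at 48 h against -3.12 and -3.61 at 8 h, a log2 rise of 1.68 ± 0.39 or 3.21-fold (limma q = 0.0135). HK2 read 3.88 and 3.89 against 2.85 and 2.67, a 2.17-fold rise (1.12 ± 0.27, q = 0.0153). For both genes the 48 h arrays lay wholly above the 8 h arrays. PC, pyruvate carboxylase, which refills the citrate cycle from pyruvate, read 3.77 and 3.50 against 2.60 and 2.63 (1.02 ± 0.26, q = 0.0212). TPI1 rose by 0.94 ± 0.22 (q = 0.0133), just short of the fold threshold. On the lower side, FBP1 read 1.12 and 1.14 and was 2.7-fold under its 8 h level (-1.43 ± 0.19, q = 0.000207). PFKFB3 read 1.95 and 1.92 against 3.08 and 3.07, a 2.21-fold fall (-1.14 ± 0.20, q = 0.00189). With the mean of all its probes PFKFB3 was at -0.47 (q = 0.343) and was not called. Of the members that did not pass, ALDOC was at 1.36 ± 0.45 (q = 0.0795) and MPI at -0.53 ± 0.24 (q = 0.218).

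Over the whole list at 48 h, 24 members were higher and 10 lower than at 8 h in UT cells. Of all 34, 17 were higher and 7 lower without overlap between arrays, beside 33.9% and 29.3% of all genes. Among the genes above background on all arrays the shares were 30.2% and 38.5%. The median was 0.21, beside 0.04 over all genes. The falls of FBP1 and PFKFB3 were called with each of the 4 arrays left out in turn. The rises were not: without UT 48 h replicate 1 or 2 FBP1 and PFKFB3 alone were called, without UT 8 h replicate 1 ENO2 and TPI1 were called beside them, and without UT 8 h replicate 2 PDK3, higher, and PDK4, lower.

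**Figure D3:**
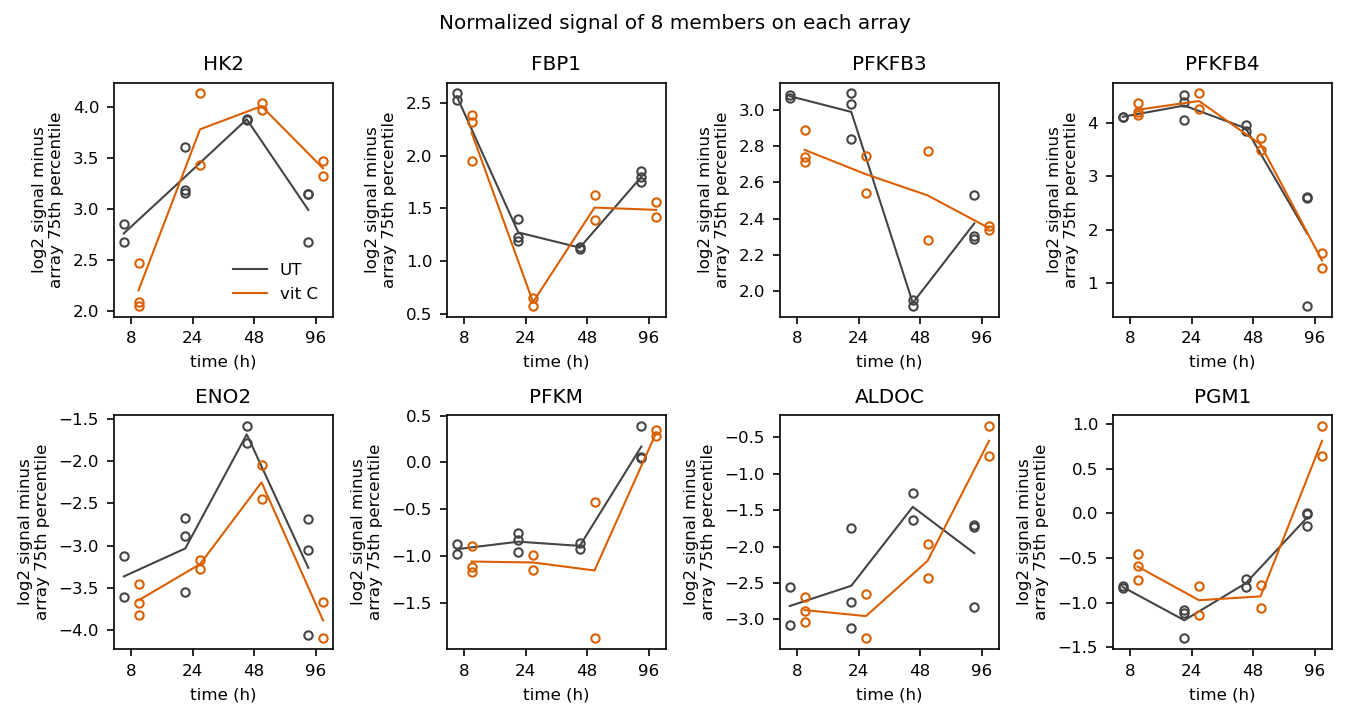
Log2 signal minus the array 75th percentile (vertical axis) of 8 members on each array at 8, 24, 48 and 96 h (horizontal axis, evenly spaced) in UT (grey) and vit C-treated (orange) cells; circles are arrays and lines join group means. FBP1 drops in both arms between 8 and 24 h, PFKFB4 drops in both by 96 h, and ALDOC and PGM1 end higher with vit C.

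At 96 h against 8 h in UT cells 2 members were called and 8 had q of at most 0.05, beside 12.3% and 17.3% of all genes. PFKFB4, another enzyme that sets fructose-2,6-bisphosphate, read 4.11 on both 8 h arrays and 2.61, 2.59 and 0.57 at 96 h. All 96 h values were lower, as in 19.1% of all genes. The log2 fall was 2.18 ± 0.44, or 4.55-fold (limma q = 0.00287), and without UT 96 h replicate 3 it was 1.51 on the log2 scale (-1.51, q = 8.44e-05). PFKM, the muscle-type phosphofructokinase, read -0.98 and -0.87 at 8 h and 0.05, 0.06 and 0.39 at 96 h. Its groups did not overlap, as in 17.7% of all genes on the higher side. The rise of PFKM was 1.09 ± 0.30, or 2.14-fold (q = 0.0207), and without UT 96 h replicate 3 it had q = 0.0504. Of the smaller changes, PDK3, a pyruvate dehydrogenase kinase (0.96 ± 0.28, q = 0.0276), TPI1 (0.86 ± 0.20, q = 0.00692), PGM1 (0.78 ± 0.19, q = 0.00911) and LDHA (0.63 ± 0.19, q = 0.0309) rose. FBP1 (-0.76 ± 0.17, q = 0.00654) and PFKFB3 (-0.70 ± 0.18, q = 0.0144) fell, both by less than at 48 h, a difference between times that was not tested. With the mean of all its probes PFKFB3 was at -0.07 (q = 0.88). These 3 comparisons share the 8 h arrays, so their values are not independent. Without UT 8 h replicate 1 PFKFB4 alone was called, and 3 members in place of 8 had q of at most 0.05, PFKFB4, TPI1 and FBP1, beside 10.6% of all genes. Without UT 8 h replicate 2 PFKFB4 and PDK3 were called and were the 2 members with q of at most 0.05, beside 10.3%.

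Of the 3 UT 96 h arrays only replicate 1 shares slide 1 with the 8 h arrays. PFKFB4 read 2.61 on replicate 1. Replicate 1 minus the 8 h mean was 0.98 for PFKM, 0.93 for PDK3, 0.79 for TPI1, 0.82 for PGM1, 0.77 for LDHA, -0.82 for FBP1 and -0.77 for PFKFB3. These genes were chosen for passing in the comparison that holds replicate 1, so their direction on it is not an independent check. With the slide as a fixed block, which leaves only that array to carry the comparison, no member was called, beside 8.89% of all genes.

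UT 96 h replicate 3 stood apart. It correlated with replicates 1 and 2 at 0.944 and 0.93 over genes above background on all arrays, against 0.979 between replicates 1 and 2. Of the 34 members 8 read lower on it by over 1 log2 unit than the mean of replicates 1 and 2, and none higher, beside 13.9% lower and 8.57% higher of the genes above background on all arrays. ALDOA read 5.09 on it against 6.63 and 6.68. ENO1, the enolase of most cells, read 4.81 against 6.36 and 6.15, and GAPDH read 6.48 against 7.60 and 7.77. Other members read close to the other arrays: TPI1 read 4.90 against 4.94 and 5.20, PGAM1 5.19 against 5.21 and 5.20, and LDHA 6.29 against 6.39 and 6.09.

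Without this array the comparison of vit C with UT cells at 96 h gave 3 called members in place of 1, beside 13.7% of all genes in that fit, and 6 with q of at most 0.05, beside 20.4%. ALDOC stayed higher (1.17, q = 0.0479), and ENO2 (-1.02, q = 0.0273) and PFKFB4 (-1.18, q = 0.00276) became called as lower with vit C. PFKFB4 read 1.56 and 1.29 on the vit C arrays, between the UT value of 0.57 and those of 2.59 and 2.61, and in the full fit its difference was -0.50. PGM1 kept q = 0.0137 without the array, and PDK2 (-0.76, q = 0.0331) and MPI (-0.49, q = 0.0453) had q of at most 0.05.

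**Figure D4:**
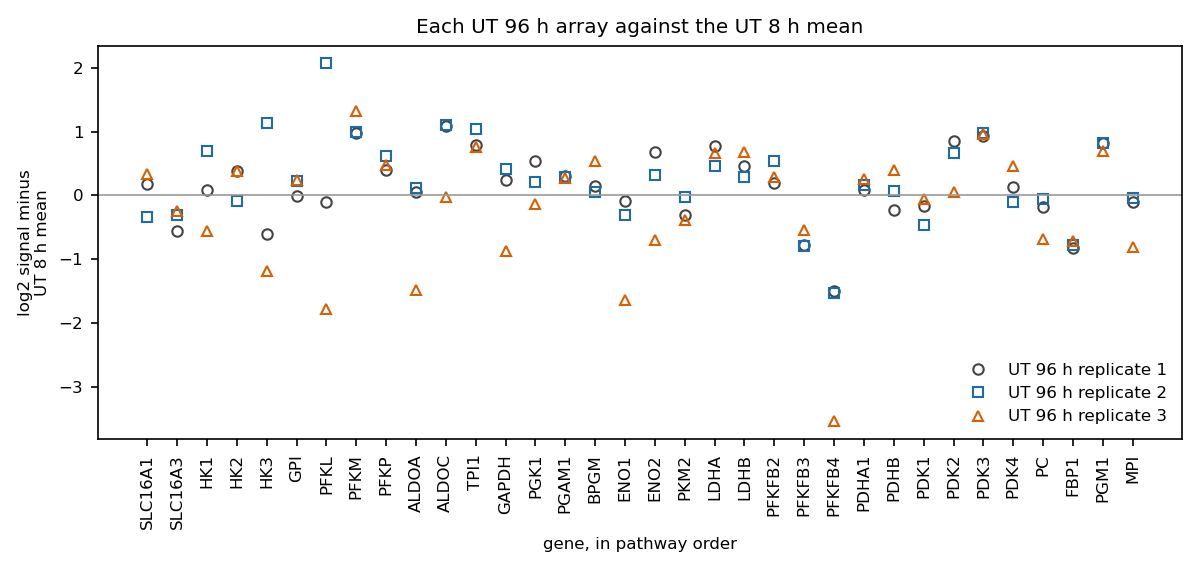
Log2 signal of each of the 34 genes on each UT 96 h array minus the mean of the UT 8 h arrays (vertical axis), by gene in pathway order (horizontal axis); symbols are the 3 arrays. Replicate 3 (triangles) lies under the other arrays for PFKL, PFKFB4, ALDOA, ENO1 and HK3, and near them for TPI1, LDHA, FBP1 and PGM1.

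In vit C-treated cells at 24 h against 8 h, both on slide 2, 2 members were called and had q of at most 0.05, beside 4.23% and 5.84% of all genes. HK2 read 3.43 and 4.14 at 24 h and 2.09, 2.47 and 2.05 at 8 h, a rise of 1.58 ± 0.24 or 2.99-fold (limma q = 0.00107). FBP1 read 0.58 and 0.65 against 1.95, 2.39 and 2.32, a 3.04-fold fall (-1.61 ± 0.17, q = 7.04e-05). Neither gene's groups overlapped, as in 18% of all genes on the higher side and 16.9% on the lower. Both calls held with each vit C 8 h array left out. HK3 (-1.31 ± 0.57, q = 0.248), PDK2 (-0.76 ± 0.26, q = 0.113), SLC16A1 (0.46 ± 0.23, q = 0.354) and PKM2 (0.47 ± 0.28, q = 0.452) did not pass.

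Whether vit C acted differently on the pathway at 24 h and at 8 h was tested as the difference of both effects, in which a constant shift between slides 1 and 2 cancels. No member was called, and none had q of at most 0.05, while 0.0193% of all genes passed by either rule. HK2 had the highest value, 1.02 ± 0.34 (limma q = 0.497), and was the 1 member with an unadjusted p of at most 0.05, beside 9.05% of all genes. PDK1 (0.48 ± 0.35, q = 0.701), SLC16A1 (0.26 ± 0.33, q = 0.86), HK1 (-0.44 ± 0.45, q = 0.819), PFKL (-0.48 ± 1.37, q = 0.953) and HK3 (-0.70 ± 0.80, q = 0.844) made up the rest of the range. The interval for HK2, 0.29 to 1.76, does not reach 0, but over all genes its q is far from the threshold.

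Several members lay on opposite sides at different times without overlap between their arrays. There were 14 such pairs of times among 8 members, beside 15.8% of all genes with at least 1 such pair, and in none did the difference of the effects pass the test over all genes (limma q from 0.0915 to 0.999, over 6 pairs of times, chosen after the values were seen). ALDOC was at -0.74 at 48 h and 1.54 at 96 h, a difference of 2.28 ± 0.61 (q = 0.117). PFKFB2 was at 0.59 at 8 h and -0.59 at 96 h (-1.18 ± 0.33, q = 0.0915). PDK1 was at -0.43 at 8 h and 0.62 at 96 h (1.05 ± 0.35, q = 0.122), and FBP1 at -0.66 at 24 h and 0.38 at 48 h (1.04 ± 0.26, q = 0.194).

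For PFKL the result depended on the probe. With the brighter of the printed probes it had the highest difference of all members at 8 h (1.30 ± 0.97, limma q = 0.651), 24 h (0.83 ± 0.97, q = 0.691) and 48 h (1.80 ± 1.06, q = 0.477). No difference passed. Its arrays ran from -0.88 to 2.97 among the UT 96 h arrays and from 1.37 to 3.09 among the vit C 8 h arrays. The within-group SD was 1.18, higher than in 99.4% of the genes above background on all arrays. The second probe gave 0.10, -0.47 and -0.10 at the same times, with a within-group SD of 0.587, and so had the opposite sign at 24 and 48 h.

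**Figure D5:**
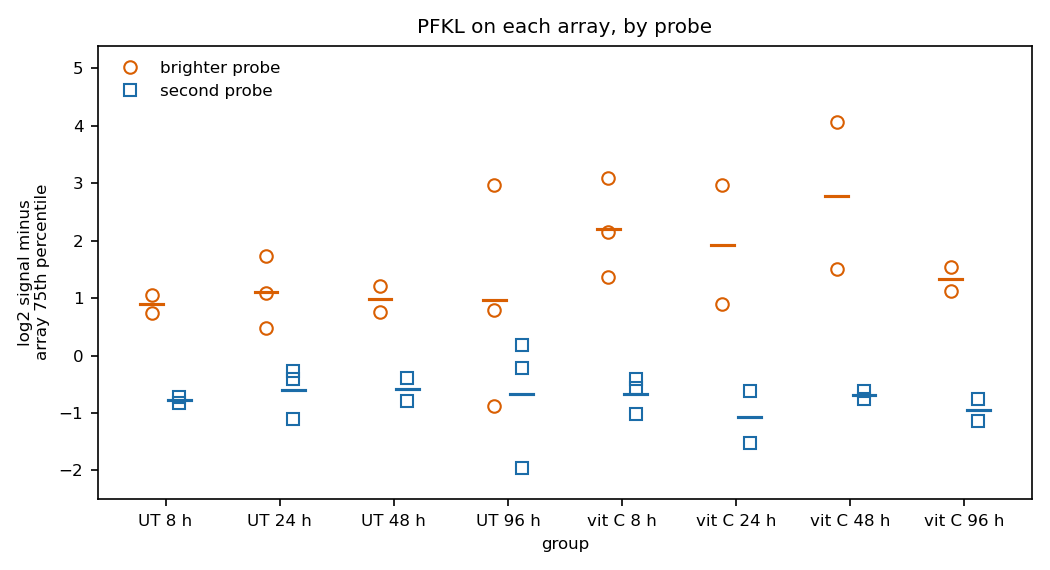
Log2 signal minus the array 75th percentile of the 2 PFKL probes (vertical axis) on each array of the 8 groups (horizontal axis); circles are the brighter probe, squares the second, and bars the group means. The brighter probe spreads from -0.88 to 2.97 among the UT 96 h arrays, and the second from -1.96 to 0.18.

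Probes of other members differed too. Of 11 members with several probes above background on all arrays, probes took opposite signs in 4, 3, 7 and 6 in the vit C comparisons in order of time. For PFKFB3 the fall at 48 h in UT cells was -1.14 with the brightest probe, -0.99 and -0.44 with 2 of the others and 0.68 with the fourth, so a mean over its probes gave -0.47 (q = 0.343). At 96 h against 8 h the brightest probe gave -0.70 and the others -0.08, 0.36 and 0.14. For HK2 the second probe was at 1.05 at 48 h against 8 h in UT cells and 2.14 at 24 h against 8 h with vit C, the sign of the brightest, and at -0.30 at 96 h against 8 h in UT cells, where the brightest read 0.23. With vit C against UT it read -1.34 at 8 h and 1.51 at 96 h, where the brightest read -0.56 and 0.41. For the vit C effect at 24 h minus that at 8 h it read 1.86, where the brightest read 1.02. A mean over both HK2 probes gave 0.96 at 96 h (q = 0.0364). ALDOA's second probe, with 71.7% G and C, had a within-group SD of 1.16 against 0.429 for the brightest. The 3 GAPDH probes gave -0.30, -0.40 and -0.23 at 48 h of vit C.

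The members with the narrowest range of group means came from several steps. The range over the 8 group means was 0.451 for PDHA1 and 0.494 for PDHB, both subunits of pyruvate dehydrogenase, 0.471 for BPGM, the bisphosphoglycerate mutase, 0.516 for GAPDH, 0.518 for HK1 and 0.522 for GPI, the glucose-6-phosphate isomerase. Of the genes above background on all arrays 4.47% had a narrower range than PDHA1 and 6.51% than PDHB. At the other end, PFKFB4 had a range of 2.98, ALDOC of 2.4, ENO2 of 2.2, PGM1 of 2.01 and FBP1 of 1.95. The median range was 1 over the members and 1.06 over the genes above background on all arrays. SLC16A3 (0.631), LDHA (0.635), PGK1, phosphoglycerate kinase (0.685), and LDHB (0.697) stood in the lower part of the list.

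A further 56 genes of the pathway and its neighbours, taken from a list of isozymes, pyruvate entry, gluconeogenesis, pentose phosphate, glycogen and regulator genes, were counted in the same fit. None was called with vit C at 8, 24 or 48 h, and 2 were at 96 h, beside 6.4% of all genes there. PPM2C, the pyruvate dehydrogenase phosphatase, rose (1.25 ± 0.24, limma q = 0.0074), and PGK2, the testis phosphoglycerate kinase, was not well above background on any array, so no fold is given. At q of at most 0.05, 0, 1, 0 and 4 of the 56 passed at the 4 times, beside 0.329%, 1.45%, 3.26% and 8.32% of all genes. In UT cells against 8 h 0 were called after 24 h, 2 after 48 h and 8 after 96 h, of which 4 were higher and 4 lower, beside 2.08%, 7.02% and 12.3% of all genes. At 48 h both were regulators and both fell, EPAS1, the hypoxia-inducible factor HIF-2 alpha (-1.28 ± 0.30, q = 0.0147), and MYC, a growth transcription factor (-1.29 ± 0.35, q = 0.0355). At 96 h PCK2, the mitochondrial PEP carboxykinase, rose (2.32 ± 0.28, q = 3.06e-05), as did HIF1A, the HIF-1 alpha subunit (1.11 ± 0.26, q = 0.00695), ENO3, the muscle enolase (1.13 ± 0.18, q = 0.000404), and BRP44, a subunit of the mitochondrial pyruvate carrier (1.04 ± 0.23, q = 0.00544). Of the genes that fell there, MLXIPL, a glucose-responsive transcription factor, was at -1.77 ± 0.44 (q = 0.0108), MYC at -1.39 ± 0.32 (q = 0.00758) and PDP2, a pyruvate dehydrogenase phosphatase, at -1.20 ± 0.20 (q = 0.000754). By size alone LDHC, the testis lactate dehydrogenase, led the vit C comparison at 24 h (1.29 ± 0.59, q = 0.303) and on average (0.82 ± 0.30, q = 0.0895), and did not pass. PPARGC1A led with vit C at 96 h, PGAM2 in UT cells at 24 and 48 h, and PFKFB1 both in vit C 24 h minus 8 h and in the difference of the vit C effects. These 3 were above background on 4, 1 and 1 of the 19 arrays, and none passed. The genes of this paragraph other than LDHC and these 3 were named after their values were seen.

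Promoter sequences are shown for the members that were called in both arms over time, HK2 and FBP1, and for ALDOC, called with vit C. They are the 250 bases before the RefSeq start site in build GRCh38.p14, 5′ to 3′ on the gene's strand, with ACGTG on either strand (also read as CACGT) in capitals. ACGTG is the core of the hypoxia response element, and CACGTG, where both strands' letters overlap, is also an E-box. HK2 has 2 start windows in the table, and the one with more matches, at chr2:74834920-74835169 on the plus strand, holds CACGTG in 2 places. FBP1, at chr9:94639519-94639768 on the minus strand, holds no match. ALDOC, at chr17:28576896-28577145 on the minus strand, holds CACGTG once and CACGT once more.
HK2: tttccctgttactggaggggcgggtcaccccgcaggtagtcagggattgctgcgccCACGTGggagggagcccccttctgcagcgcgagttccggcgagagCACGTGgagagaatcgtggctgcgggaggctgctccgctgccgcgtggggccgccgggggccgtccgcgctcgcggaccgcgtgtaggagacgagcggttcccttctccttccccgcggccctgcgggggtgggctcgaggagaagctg
FBP1: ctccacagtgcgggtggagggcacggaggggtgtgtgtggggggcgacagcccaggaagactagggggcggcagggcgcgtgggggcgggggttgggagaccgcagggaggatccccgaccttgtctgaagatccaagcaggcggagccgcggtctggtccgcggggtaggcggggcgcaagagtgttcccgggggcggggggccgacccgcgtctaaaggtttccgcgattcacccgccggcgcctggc
ALDOC: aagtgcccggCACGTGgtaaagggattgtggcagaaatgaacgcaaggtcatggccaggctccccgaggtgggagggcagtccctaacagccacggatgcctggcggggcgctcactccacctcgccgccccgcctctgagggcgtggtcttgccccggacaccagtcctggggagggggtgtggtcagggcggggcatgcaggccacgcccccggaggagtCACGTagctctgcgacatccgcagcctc
Of all 35116 windows of this length 18.5% held ACGTG on either strand (21.7% of genes in any window), and 23 of the 64 windows of the 32 members that matched the table by symbol did (35.9%), with several windows of a gene overlapping. PFKFB2 and SLC16A1 were not matched. The match was present in 20 of the 32 members.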

How the data were processed

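The authors labelled RNA that met their RNA integrity limit and hybridized it to 19 one-colour Agilent arrays, and they deposited the spot intensity values of each scan. Per the file headers, these were extracted with Agilent Feature Extraction 10.5.1.1. The log2 values of the authors' series matrix differ from the logged processed signal by a shift that is the same for all single-spot probes of an array, and served as an alternative. Here, 51538 spots of 52857 were kept, without the controls, spots of a probe were averaged on the log2 scale, and each array was scaled to its 75th percentile. The percentile lay between 290.2 and 903.5, and no spot that was not a control was saturated.

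limma 3.58.1 in R 4.3.3 (lmFit and eBayes, 2-sided) was fitted to 50238 probes as 8 group means, and each gene took its brightest probe. The script was tested on simulated arrays drawn from the probes' own means and spreads. For vit C against UT at 48 h, 20% of 100 genes changed by 1 log2 unit had q of at most 0.05. Of 100 genes changed by 2 log2 units 76% did. For UT 48 h minus 8 h the shares were 22% and 79%. Most changes of 1 log2 unit were thus missed in the simulation. The methods' t-test was an alternative, because groups hold 2 or 3 arrays. Samples were grouped by GEO's labels. The members, gene lists and tests were chosen with earlier results of these data known. Named are members with q of at most 0.05 and the 3 highest and 3 lowest well above background in both groups of a comparison. Of other pathway genes the largest in a comparison was to be named. Some of these are not reported here by name. No pairing was used, since the methods name none. The deviations of same-numbered arrays correlated at -0.336 to 0.129 in 8 pairs. In a group of 2 arrays the deviations mirror each other, so these pairs are not independent and cannot exclude pairing. Gene names are those of the array files, and no probe coordinates were used. Plots used matplotlib 3.10.9 under Python 3.11.15, and promoters come from RefSeq (GRCh38.p14). In the alternatives 1 choice was changed at a time.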

Additional observations from a re-analysis of the deposited data

How the results depend on the processing

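Counts of called members at 8, 24 and 48 h of vit C, and for the difference of effects, were 0 under all alternatives run. Some of these fits called few genes or none, and a 0 there says nothing about the members. Only the groups compared gave 0% of all genes at 48 h and for the difference of effects. The slide as a fixed block gave 0.0193%, 0.0548% and 0.338% at 8, 24 and 48 h, and the replicate block 0.0773% at 8 h. Below, shares of all genes called in the same fit stand in brackets. The 1 call at 96 h of vit C was 0 with quantile normalization (2.68%), only the groups compared (0%), the slide as a random block (4.4%) and the replicate block (2.88%), 2 under the methods' rule on opposing probes (12.8%) and 3 with array weights (13.8%), and 0 to 3 with an array left out (1.21% to 13.7%). UT 24 h minus 8 h gave 0 calls in place of 1 with only the groups compared (0.129%), and 1 with any array left out (0.822% to 1.8%). UT 48 h minus 8 h gave 3 with normexp (4.29%) in place of 5, 4 with the mean of all probes (6.58%), the opposing-probe rule (8.9%) and only the groups compared (5.65%), 6 with quantile normalization (7.25%) and array weights (9.69%), and 2 to 4 with an array left out (4.53% to 5.1%). UT 96 h minus 8 h gave 1 with normexp (7.28%) and 0 with only the groups compared (4.35%) and the slide as a fixed block (8.89%) in place of 2, and 1 to 2 with an array left out (9.44% to 14.3%). Vit C 24 h minus 8 h gave 2 with any array left out (2.87% to 3.92%). The methods' t-test after adjustment gave 0 members for vit C at 96 h and for each comparison over time. It called 0 of all 31033 genes at 24, 48 and 96 h of vit C, for UT 24 h minus 8 h and for vit C 24 h minus 8 h, and 10, 7 and 211 for vit C at 8 h and UT at 48 and 96 h, so its 0 says nothing about the members where no gene passed. The average gave 0 to 1 with an array left out (2.47% to 3.44%). At their own p, before adjustment, the methods' t-test with a log2 difference of at least 1 gave 0, 0, 0 and 0 members at the 4 times of vit C (4.14%, 3.66%, 4.7% and 7.88% of all genes), 1, 5 and 1 in UT cells at 24, 48 and 96 h (3.47%, 8.09% and 9.86%), and 2 for vit C 24 h minus 8 h (5.49%). The cause of these shifts was not tested.

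The replicate block changed no other call at the fold threshold. For UT 96 h minus 8 h it left 6 members with q of at most 0.05 in place of 8, beside 14.5% of all genes. Same-numbered arrays at 48 h deviated in opposite directions (correlation -0.135), and a block with crossed numbers, chosen after seeing the data, also gave 0 calls there. Normexp moved the median of all genes by up to 0.26 (UT 48 h minus 8 h) on the log2 scale. Of the values of named genes under alternatives 1139 kept direction and side of the threshold, 81 lost and 30 gained the threshold and 7 changed sign, and none of these genes had passed the test: PFKFB2 on average with normexp (-0.0274), and with the mean of all probes ALDOA at 48 h of vit C (0.18), PFKFB2 at 96 h of vit C (0.094) and PFKFB2 at 24 h in UT cells (-0.0619). With an array left out, PFKL at 24 h of vit C ran from -0.21 to 1.87, and for the difference of effects PFKL ran from -1.52 to 0.56 and HK3 from -1.41 to 0.0088. The slide as a fixed block could not be fitted for vit C at 96 h or the average, and the t-test was not run for the average and the difference of effects. Groups of 2 or 3 arrays limit the precision: the 95% interval of a member's vit C difference had a median width of 0.504 to either side at 8, 24 and 96 h and 0.552 at 48 h. Where leaving 1 out left a single array in a group, that array was taken to have the spread of the remaining groups. With array weights, the members with q of at most 0.05 numbered 9 for the average (23% of all genes), 8 for vit C at 96 h (21.8%), 3 at 48 h (3271 genes) and 13 for UT 48 h minus 8 h (18.5%), in place of 2, 2, 0 and 6. With normexp they were 7 for vit C at 96 h (45.7%) and 6 for the average (15.5%), and with quantile normalization 1 at 24 h (2.03%), 1 at 48 h (4.76%), 1 at 96 h (4.09%) and 1 for the average (12.6%).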
